A study of Mus musculus with 6 samples.

Results

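Antibodies of the IgG class act on cells through receptors for their constant part, the Fc region. Of the 6 mouse genes described here, Fcgr1, Fcgr3 and Fcgr4 encode ligand-binding chains of activating receptors, Fcer1g encodes the common gamma chain with which these activating receptors signal, Fcgr2b encodes the inhibitory receptor, and Fcgrt encodes the neonatal Fc receptor FcRn, which resembles a class I histocompatibility molecule and returns bound IgG from endosomes. Activating receptors signal through an ITAM, a paired tyrosine motif in the tail of the gamma chain, whereas Fcgr2b carries an ITIM, an inhibitory tyrosine motif in its own tail. In the eye, receptors of this family are known mainly from macrophages and microglia, and FcRn is known from vascular and epithelial barriers.

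The 6 genes were taken by symbol from the 33924 genes listed in the deposited table, and each symbol was found. The table came from poly(A)-selected RNA sequencing of RPE/choroid, the retinal pigment epithelium with the vascular layer behind it, from 3 young and 3 aged wild-type C57BL/6J animals with no treatment or engineered allele, where a sample combined the left and right eye. Young animals were labelled as 1 to 2 months old. The titles of the aged samples give 20 to 24 months, and their age entry gives 22 to 24 months. Every animal is labelled as male, and the methods of the paper name both sexes and a later range for the young group. The only measurement used here is the mean normalized count that the authors computed over libraries of both ages, so each level below is an average of young and aged tissue without a value per mouse, an SD or a depth per library. No difference between the ages is reported for these genes.

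Of the listed genes, 18479 had a mean of at least 10. All 8 RPE markers, the defining genes of the labelled tissue, had a mean of at least 10. Their highest levels were 335233 normalized counts per kilobase of transcript for Ttr, 63232 for Rgr and 61154 for Rpe65, and the lowest was 39.3 for Best1, below the median measured gene. Genes of tissues outside RPE and choroid were also present. The 6 rod photoreceptor markers had a median of 8974 and the 5 skeletal muscle markers a median of 28023 normalized counts per kilobase.

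All 6 receptor genes were measured well above the filter of 10. The mean normalized count was 10296 for Fcgrt, 3830 for Fcgr3, 1035 for Fcgr2b, 790 for Fcer1g, 647 for Fcgr1 and 546 for Fcgr4. The number of listed genes with a higher mean was 600 for Fcgrt and 2292 for Fcgr3, and it was between 7436 and 9984 for the other 4 genes. A long transcript yields more reads than a short one at equal abundance, so levels of different genes are compared below per kilobase of the longest annotated transcript. The authors derived the normalized counts from TPM, an abundance unit that is itself corrected for transcript length, and if that correction was kept, the values without length scaling are the ones to compare. Per kilobase the median of the 6 genes was 796, beside a median of 214 over the 17943 genes with a mean of at least 10 and a known length. Without length scaling the contrast was smaller. The median of the 6 genes was then 913, beside 668 over the 18479 genes with a mean of at least 10.

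**Figure D1:**
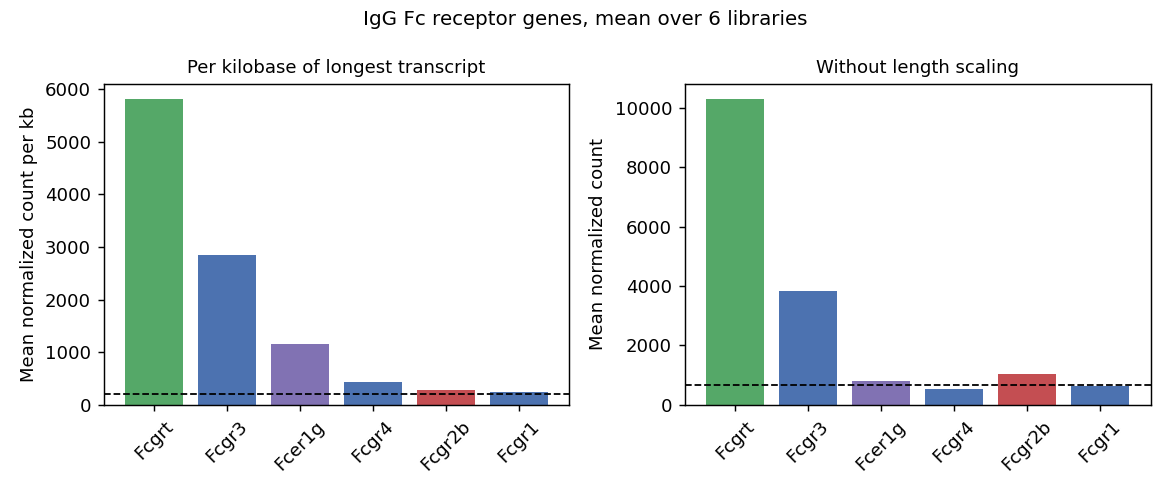
Authors' mean normalized count of each IgG Fc receptor gene over 6 libraries of both ages, per kilobase of the longest transcript (left axis) and without length scaling (right axis). Green is Fcgrt, purple Fcer1g, red Fcgr2b and blue the activating ligand-binding chains; the dashed line is the median of genes with a mean of at least 10, and there are no error bars because no value per library was used. Fcgrt at 5817 and Fcgr3 at 2843 per kilobase stand above the rest, and Fcgr1 at 250 lies nearest the line.

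Fcgrt was the highest of the 6 genes per kilobase, with 5817 normalized counts per kilobase, which placed it in the top 3.36% of measured genes. Fcgr3, the low-affinity activating receptor CD16, followed with 2843 per kilobase and lay in the top 6.80%. Fcer1g had 1157 per kilobase, 5.41 times the median gene. These levels ran in the order Fcgrt, Fcgr3 and Fcer1g with each transcript length tried. Without length scaling the order of Fcgrt and Fcgr3 was the same, and Fcer1g came after Fcgr2b. On that scale Fcer1g, with a mean of 790, was close to the median of 668 over genes with a mean of at least 10. Its percentile among those genes was 53.5.

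Per kilobase of the longest transcript, the remaining receptors lay nearer the median gene. Fcgr4, an activating receptor of intermediate affinity, had 435 normalized counts per kilobase, Fcgr2b had 292 and Fcgr1, the high-affinity receptor CD64, had 250. Per kilobase they were 2.03, 1.37 and 1.17 times the median gene. The order within these 3 genes depended on the length used. With the median length of a gene's transcripts, or with its coding length, Fcgr2b came before Fcgr4 and Fcgr1. The level of Fcgr2b was then 708 and 1014 per kilobase. Without length scaling Fcgr4 at 546 and Fcgr1 at 647 were below the median of 668 over genes with a mean of at least 10. Fcgr2b at 1035 was above that median. The longest Fcgr2b transcript of 3544 bases compares with a median of 1462 bases over its transcripts, and the table has no value per transcript. Whether any neighbours in this order differ beyond the spread between mice cannot be read from a mean.

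Among the activating ligand-binding chains, Fcgr3 made up most of the transcript level. The summed level of Fcgr1, Fcgr3 and Fcgr4 was 3528 normalized counts per kilobase, of which Fcgr3 was 80.6%, Fcgr4 12.3% and Fcgr1 7.09%. Fcgr3 was 6.54 times Fcgr4 and 11.4 times Fcgr1 per kilobase, and 7.01 and 5.92 times them without length scaling. The summed activating chains were 12.1 times the inhibitory receptor Fcgr2b per kilobase, 5.32 times it with the median transcript length and 4.85 times it without length scaling. They were 3.05 times Fcer1g, the adaptor that each of them uses, on the scale of the longest transcript, 1.97 times it on the scale of coding length and 6.36 times it without length scaling. These ratios compare transcripts in whole tissue, where the number of cells that express a receptor and the RNA of each such cell cannot be told apart.

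Both motifs that separate activating from inhibitory signalling can be read in the reference transcripts. The sequences below are the ends of the coding sequences of Fcer1g and Fcgr2b in the GENCODE annotation of GRCm38, shown because they carry these motifs. Capitals mark the ITAM in Fcer1g, which is a tyrosine codon, any 2 codons and a leucine or isoleucine codon, then 6 to 8 codons and the same again. In Fcgr2b they mark the ITIM, which is an isoleucine, valine or leucine codon, any codon, a tyrosine codon, any 2 codons and a leucine or valine codon.
Fcer1g: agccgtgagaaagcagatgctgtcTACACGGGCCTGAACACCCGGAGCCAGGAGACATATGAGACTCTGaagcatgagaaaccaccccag
Fcgr2b: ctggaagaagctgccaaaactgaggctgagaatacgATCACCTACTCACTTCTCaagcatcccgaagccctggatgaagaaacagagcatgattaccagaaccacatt

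The Fcer1g sequence lies on the minus strand of chromosome 1 in exons 3 to 5 of 5, with its last part at chr1:171229868-171229927, and its ITAM takes codons 65 to 79 of 86. The Fcgr2b sequence lies on the same strand in exons 7 and 8 of 8, with its last part at chr1:170961017-170961100, and its ITIM takes codons 317 to 322 of 340. Of the 6 genes, Fcer1g was the only one with a match to the ITAM pattern in the transcript examined. A match was found in 2.87% of 21747 coding genes. The annotation also lists a second complete Fcer1g coding transcript, of 276 coding bases against 258, which has no match. The shorter ITIM pattern was found in 33.4% of coding genes and is not particular to Fcgr2b, with matches in each of the other genes except Fcgr3. A match to letters is not evidence that a motif is used.

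Fcgr2b and Fcgr3 were alike in sequence over their outer domains, which bears on how firmly their reads can be assigned. Their coding sequences were identical at 86.7% of 782 aligned bases, and the best-matching stretch was identical at 95.8% of 521 bases. The other 14 pairs among the 6 genes were identical at 62.7% to 71.1% of aligned bases in the same alignment, pairs of unrelated proteins such as Fcer1g with Fcgrt included. The following stretch of 249 bases in exons 3 and 4 of both genes is shown because it holds their longest identical run, of 129 bases. Capitals mark the 6 positions at which the genes differ.
Fcgr2b: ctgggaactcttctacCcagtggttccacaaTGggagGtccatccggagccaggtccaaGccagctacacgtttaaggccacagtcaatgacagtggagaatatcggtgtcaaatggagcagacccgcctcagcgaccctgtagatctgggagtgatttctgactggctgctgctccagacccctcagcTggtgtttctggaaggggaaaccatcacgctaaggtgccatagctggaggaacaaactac
Fcgr3: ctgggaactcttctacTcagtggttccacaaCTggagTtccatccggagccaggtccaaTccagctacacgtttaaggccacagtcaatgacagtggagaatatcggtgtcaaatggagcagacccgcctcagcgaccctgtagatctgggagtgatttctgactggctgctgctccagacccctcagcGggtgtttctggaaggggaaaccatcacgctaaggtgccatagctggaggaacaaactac

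In Fcgr2b this stretch covers chr1:170967980-170968141 in exon 3 and chr1:170966614-170966700 in exon 4. In Fcgr3 it covers chr1:171057691-171057852 in exon 3 and chr1:171054107-171054193 in exon 4, on the minus strand in both genes of GRCm38. Of the words of 50 bases in Fcgr3 transcripts, 90.4% occurred in no other gene, and Fcgr2b was the only gene that shared the rest. With words of 100 bases, the length of a read, the share was 97.5%. For Fcgr2b the shares were 95.6% and 98.6%. Fcgr2b had words of 50 bases in common with 47 other genes and words of 100 bases with 7, and Fcgr3 shared the most at both lengths. Words were compared in the orientation of the transcripts only, so bases shared with an opposite strand were not counted. In that comparison Fcgr1, Fcgr4, Fcer1g and Fcgrt had no word of 50 bases in common with another gene. The levels of Fcgr2b and Fcgr3 are therefore less certain than those of the other 4 genes to the extent that reads from the shared bases were divided between them. For Fcgr2b this also holds for reads divided with the other genes that share its words. How such reads were divided was not tested. Reads were paired, so a pair can also be placed by its mate.

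The genes Fcgr2b, Fcgr3, Fcgr4 and Fcer1g lie together on chromosome 1. Within 276 kilobases from chr1:170958617 to chr1:171234365 the annotation has 11 protein-coding genes, of which Fcgr2b (ENSMUSG00000026656), Fcgr4 (ENSMUSG00000059089), Fcgr3 (ENSMUSG00000059498) and Fcer1g (ENSMUSG00000058715) are 4. Fcgr4 is on the plus strand and the other 3 are on the minus strand. Between Fcgr3 and Fcer1g lie genes of other functions, and their levels spread widely. Sdhc, a subunit of succinate dehydrogenase, had 3542 normalized counts per kilobase and Apoa2, an apolipoprotein, had 22.1. Fcgr1 (ENSMUSG00000015947) lies on chromosome 3 from 96282909 to 96293969 and Fcgrt (ENSMUSG00000003420) on chromosome 7 from 45092990 to 45103851, both on the minus strand. A noncoding gene on the opposite strand overlaps Fcgr2b, and another overlaps Fcgrt. The library kit keeps the strand, and the sources used here do not say whether the quantification used it.

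**Figure D2:**
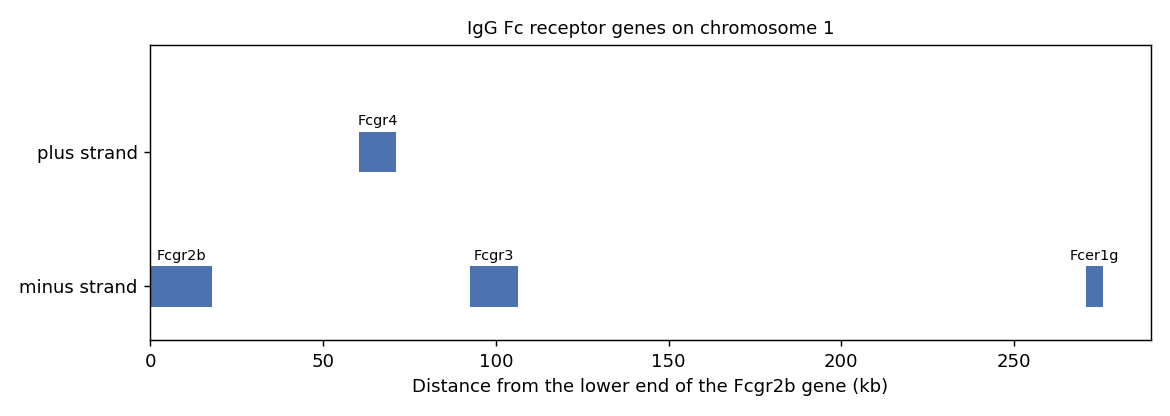
Positions of the 4 receptor genes of chromosome 1 in GRCm38, by distance in kilobases from the lower end of Fcgr2b, with the strand on the vertical axis. Bars span each gene, and genes between them are not drawn; Fcgr2b, Fcgr4 and Fcgr3 lie side by side at one end and Fcer1g at the other.

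Isoforms could not be separated in this table. The annotation has 4 coding transcripts of Fcgr2b, with coding lengths from 879 to 1020 bases. The shortest lacks a coding exon of 141 bases at chr1:170963325-170963465, upstream of the exon that carries the ITIM. All 4 coding transcripts hold the ITIM pattern. Fcgr4 has 1 annotated transcript, of 1256 bases, so its length does not depend on the choice of transcript.

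The partners of these receptors were present at unequal levels. B2m, the light chain that FcRn shares with class I histocompatibility molecules, had 32073 normalized counts per kilobase. This was 5.51 times Fcgrt, against 3.29 times with the median transcript, 8.22 times with coding length and 2.68 times without length scaling. Tyrobp, an ITAM adaptor used by other myeloid receptors, had 9399 per kilobase, 8.12 times Fcer1g, against 5.36 times with coding length and 7.10 times without length scaling. Cd247, the zeta chain, an ITAM adaptor of lymphocytes, had 18.2 per kilobase. Of the 8 signalling adaptor genes chosen, Tyrobp and Cd247 included, 7 had a mean of at least 10. Fcer1g also serves the high-affinity IgE receptor of mast cells, whose alpha chain Fcer1a had 214 and whose beta chain Ms4a2 had 35.2 per kilobase.

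Genes that act below the receptors were nearly all detected. Of 30 activating signalling genes chosen, 29 were analysed, and all 29 had a mean of at least 10, with a median of 145 normalized counts per kilobase. The highest were Rac1, a small GTPase, at 1263, Plcg1, a phospholipase, at 1002 and Pik3r1, a regulatory subunit of phosphatidylinositol 3-kinase, at 909. Without length scaling Pik3r1 was above both others, with a mean normalized count of 6465 against 5253 for Rac1 and 5119 for Plcg1. Per kilobase the lowest was the kinase Btk at 44.7. Without length scaling Btk, with a mean normalized count of 113, was not the lowest. Lyn, a kinase that phosphorylates receptor tyrosines, had 356 per kilobase. Syk was not analysed here. The 9 inhibitory signalling genes were all detected, with a median of 425 per kilobase. Inpp5d, the lipid phosphatase SHIP1 that the ITIM of Fcgr2b recruits, had 167, and Ptpn6, the phosphatase SHP-1, had 601. Ptpn11 was highest at 815, Csk, a kinase that restrains Src family kinases, had 580 and Cbl was lowest at 2.76.

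The IgG heavy chain transcripts with a known length, Ighg1 and Ighg2c, were below each of the receptors per kilobase. Of 12 antibody gene symbols chosen, 6 were analysed, and all 6 had a mean of at least 10. Ighg2b and Ighg3 were not analysed here. Ighm, the heavy chain of IgM, was the highest per kilobase at 1075, followed by Igkc, the kappa light chain, at 697 and Igj, the joining chain, at 179. Without length scaling Igj had a mean normalized count of 420 and Igkc 371. Among IgG heavy chains, Ighg2c had 74.1 per kilobase, the lowest was Ighg1, and the entry Ighg, which has no length in the annotation, had a mean normalized count of 154. Circulating IgG made elsewhere is not seen by RNA measurement of this tissue.

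Other Fc receptors and receptor-like genes were mostly low. Of 14 listed, 10 had a mean of at least 10, and the median of those 10 was 32.0 normalized counts per kilobase. Fcrls, a receptor-like gene known from microglia, was highest at 786, followed by Trim21, a cytosolic IgG receptor, at 369 and Fcer1a. The lowest of the 10 was Fcgbp at 3.91. Per kilobase each of the 6 IgG receptor genes lay above the median of those 10, and Fcgrt, Fcgr3 and Fcer1g exceeded the highest gene of this list. Without length scaling Fcer1g, with a mean normalized count of 790, was below Fcrls, with 1788.

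**Figure D3:**
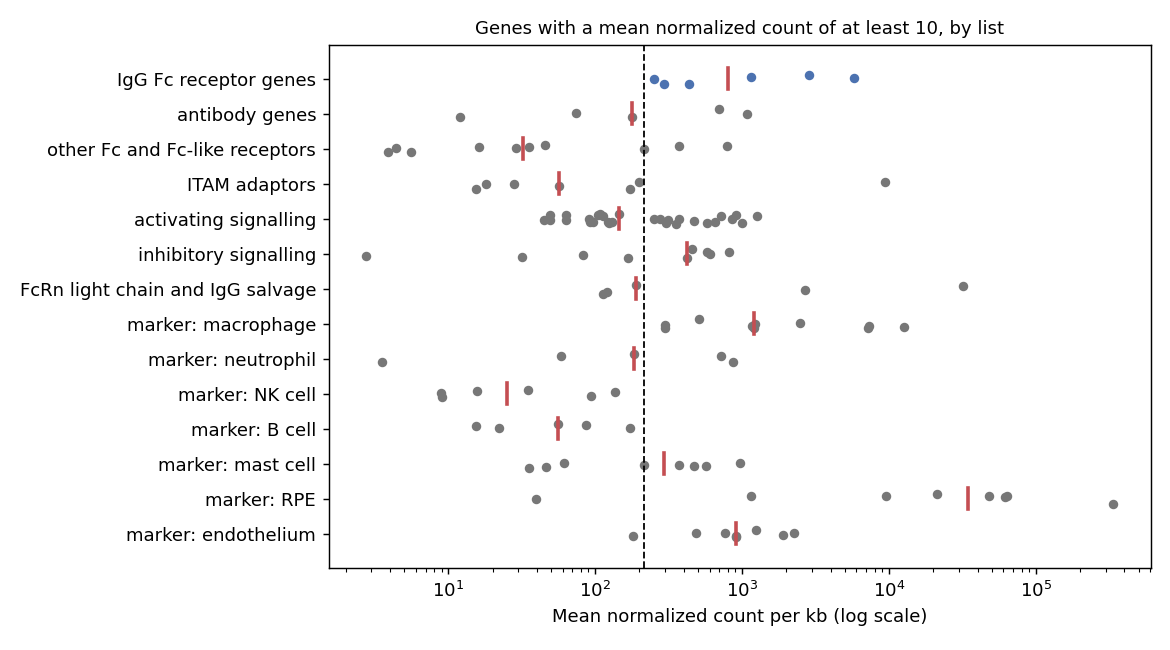
Authors' mean normalized count per kilobase (log scale) of genes with a mean of at least 10, one row per gene list; each point is a gene, red ticks are list medians and the dashed line is the median of all such genes, 214. The IgG Fc receptor genes (blue) run from 250 to 5817 with a median of 796, beside a median of 1207 for macrophage markers, 25.2 for NK cell markers and 56.0 for B cell markers.

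Cells that carry these receptors differed in their marker levels. The 10 listed macrophage markers were all detected, from 296 for Itgam to 7152 for C1qb, 7308 for C1qc and 12659 for C1qa, with a median of 1207 normalized counts per kilobase, and Csf1r, the receptor for macrophage colony-stimulating factor, had 1217. The 8 mast cell markers had a median of 294. Of 7 neutrophil markers 5 had a mean of at least 10, and the median of those 5 was 185. Markers below that filter were left out of the medians given here. S100a9 was at 866 per kilobase, whereas Ly6g, a defining neutrophil marker, had a mean normalized count of 2.14. The medians were 25.2 for 6 of 7 NK cell markers and 56.0 for 5 of 6 B cell markers. Endothelial markers, of a cell type known for FcRn, had a median of 913 over 8 genes. Which cells contributed the receptor transcripts was not tested.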

How the data were processed

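According to the labels and the methods of the paper, the authors depleted ribosomal RNA, cleaned the reads with BBDuk, aligned these with STAR to transcripts of GRCm38, estimated abundances in TPM with Sailfish, turned these into normalized counts with a total count scaling and ran DESeq2. The unit of the deposited mean normalized count is a signal, which the authors averaged over young and aged libraries together. The 5 other columns of the deposited table hold the authors' own comparison of young with aged tissue (fold change, its standard error, statistic and p-values) and were not used. No value per library was used, so the planned test of age was not run, and depth per library is unknown.

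Levels were divided by the longest transcript in GENCODE release M21 of GRCm38, a later annotation than the authors' one. A length was found for 91.3% of symbols. TPM is corrected for length, and the sources do not state whether the normalized counts kept that correction. Over 15519 coding genes with a mean of at least 10, the log2 mean rose by 0.29 per doubling of length, and values without length scaling are given for the 6 receptor genes and their ratios. Coding sequences came from the longest complete coding transcript with a RefSeq record and were aligned with Biopython 1.88. Proteins were not analysed here, so nucleotides replaced the planned protein alignment. Code was tested on simulated sequences. Python 3.11.15, pandas 2.3.3, scipy 1.17.1 and matplotlib 3.10.9 were used.

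The members and lists were chosen with earlier results of these data known. All 6 members are named. From lists with over 8 detected genes the 3 highest and the lowest per kilobase are named, with fixed partners, and from shorter lists any gene. Sdhc and Apoa2, and of the marker lists Csf1r, Ly6g and Sox10, were chosen after their values were seen. T cell, dendritic cell and melanocyte markers with a mean of at least 10 had medians of 28.6, 50.6 and 39758 normalized counts per kilobase. The lowest melanocyte marker was Sox10 at 452 per kilobase. Alternatives were other transcript lengths, other gene backgrounds, other word lengths, local alignment and a filter of 50.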

Additional observations from a re-analysis of the deposited data

How the results depend on the processing

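No paired analysis was possible because no value per library was used, and leaving out a replicate, another normalization and a fit of age were not run for the same reason. Percentiles in this paragraph rank means without length scaling, unlike the top percents per kilobase above. The median percentile of the 6 genes was 68.6 among genes with a mean above 0, 56.6 among genes with a mean of at least 10 and 76.4 among all listed genes, since the background then holds fewer or more low genes. The log2 ratio of the activating chains to Fcgr2b was 3.60 with the longest transcript, 2.41 with the median transcript, 2.58 with coding length, 3.74 with the length less 200 bases and 2.28 with no length scaling. For the activating chains to Fcer1g it was 1.61, then 1.68, 0.98, 1.33 and 2.67 in the same order. The log2 ratio of Fcgr4 to Fcgr2b turned to -0.70 with the median transcript, -0.47 with coding length and -0.92 with no length scaling, and that of Fcgr4 to Fcgr1 turned to -0.25 with no length scaling. The coding identity of Fcgr2b and Fcgr3 was 95.8% in a local in place of a global alignment, which covers fewer bases. Of the other values recomputed, 66 moved and 30 stayed within a tolerance, which was 1.5 times for numbers of listed genes and otherwise a 95% exact binomial interval that treats the means, ranks or words as counts and holds no spread between mice. No length scaling and the nucleotide alignments were chosen after seeing the data. The means carry no error, so small differences in level between genes cannot be judged.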
